A study of Mus musculus with 10 samples.

Results

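The genes described here are 9 genes by which antigen-presenting cells show peptides to CD4 T cells: *H2-Aa*, *H2-Ab1*, *H2-Eb1*, *H2-DMa*, *H2-DMb1*, *Cd74*, *Ciita*, *Cd80* and *Cd86*. They were chosen by symbol, with earlier results of these data known. All 9 were found among the 56691 genes of the deposited table and among the 16545 genes with enough counts to be tested. Their RNA was measured in colon tissue of mice with colitis caused by dextran sulfate sodium (DSS), a polymer that injures the colon epithelium when drunk. The study asked how the colon transcriptome differs after chick early amniotic fluid (ceAF), the fluid around the early chick embryo, is given by mouth. All mice were males of the C57BL/6 strain, 8 weeks old. The 5 mice of the DSS group drank 3% DSS for 7 days. The 5 mice of the ceAF group drank 3% DSS for 7 days, followed by 10 days of ceAF gavage at 15 mL/kg. The study's drawing of its design gives the DSS mice pure water by gavage over the same days. It also has all groups sampled on the same day. That this held for the sequenced mice is not stated separately. The sample labels number the libraries within each group. That the 10 libraries are 10 separate mice is read from those numbers and was taken as given. Between 14676471 (ceAF-1) and 19901549 (DSS-2) reads were counted on genes per mouse. *Cdx2*, a transcription factor of the intestinal epithelium, was found in every mouse, at 66.1 CPM or more (CPM, library-scaled counts, the scale of all levels unless another is named).

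MHC class II molecules are pairs of an alpha and a beta chain that carry peptides from engulfed proteins to the cell surface, where the receptors of CD4 T cells read them. Newly made pairs are held by the invariant chain, H2-DM exchanges its remnant for a peptide, and CIITA is the coactivator that switches these genes on, mainly in dendritic cells, B cells and macrophages and, under interferon gamma, in other cells including gut epithelium. CD80 and CD86 on the presenting cell give the second signal, through CD28, that a naive T cell needs.

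All 9 genes had a lower fitted level in the ceAF group than in the DSS group, but the difference was within the spread between mice. The log2 fold changes, ceAF minus DSS, ran from −1.41 for *Cd80* to −0.32 for *Ciita* with a median of −0.58, against a median of 0.01 over all genes tested. A fold change below 0 was found in 9 of the 9 genes and in 48.6% of all genes tested. Most of the 9 varied together from mouse to mouse, so they are not 9 separate observations. At an unadjusted p under 0.05 in the quasi-likelihood test of edgeR, 1 of the 9 genes (*Cd80*) was lower in the ceAF group, against 3.67% of all genes tested. After Benjamini-Hochberg adjustment, edgeR's test called 0 of the 9 genes and 0 of all genes tested (0%), whereas 1146 genes, 607 lower and 539 higher in the ceAF group, were under an unadjusted p of 0.05. DESeq2's Wald test called 31 genes after the same adjustment, and 0 of the 9 were among them. Without DSS-5, edgeR called 3 genes, again 0 of the 9. The count of 1 of 9 depended on single mice: it was 6 without DSS-5 and 0 without DSS-1, ceAF-1, ceAF-2, ceAF-4 or ceAF-5. The median of −0.58 was −0.83 without DSS-5 and −0.37 without ceAF-4. The mice of the groups did not overlap in 0 of the 9 genes, against 1.24% of all genes tested. Because whole tissue was sequenced, fewer presenting cells and less RNA of these genes per cell cannot be told apart.

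Particular mice stood apart, in these genes and over all genes tested. The chi-square per gene between libraries was 84.6 to 97.5 for the pairs of DSS-5 with the other DSS mice. It was 46.9 to 53.6 for the pairs of DSS-1 with DSS-2 to DSS-4, and 14.7 to 21.4 for the pairs among DSS-2 to DSS-4. For the pairs of ceAF-1 with the other ceAF mice it was 112 to 149, and 26.4 to 99.6 for the pairs among ceAF-2 to ceAF-5. DSS-5 had the lowest level of all 10 mice in 7 of the 9 genes, and ceAF-4 had the second lowest level in the same 7. DSS-1 had the highest level of the remaining 2 genes, *Cd80* and *Cd86*. The 9 genes together took 0.156% of all counts in DSS-1 (95% Wilson interval 0.154 to 0.158), 0.230% in DSS-2 (0.228 to 0.232), 0.198% in DSS-3 (0.196 to 0.200), 0.192% in DSS-4 (0.190 to 0.194) and 0.0346% in DSS-5 (0.0338 to 0.0355). In the ceAF group they took 0.0835% in ceAF-1 (0.0820 to 0.0850), 0.129% in ceAF-2 (0.127 to 0.131), 0.0985% in ceAF-3 (0.0971 to 0.0999), 0.0463% in ceAF-4 (0.0453 to 0.0473) and 0.1645% in ceAF-5 (0.163 to 0.167). These intervals cover counting error only. DSS-5 and ceAF-4 were thus alike in these genes although they belong to different groups, and ceAF-5 lay above DSS-1. The depth of these libraries was not unusual, with 16426125 counts in DSS-5 and 16058782 in ceAF-4. Mitochondrial genes took 5.06% to 6.54% of counts in the DSS mice, and 9.66% in ceAF-1 (95% Wilson interval 9.64 to 9.67), 5.64% in ceAF-2 (5.63 to 5.65), 4.53% in ceAF-3 (4.52 to 4.54), 7.24% in ceAF-4 (7.22 to 7.25) and 9.74% in ceAF-5 (9.72 to 9.75). Their share was thus highest in ceAF-1 and ceAF-5, and its part in the results was not tested. When DSS-5 was left out, 6 of the 9 genes were lower in the ceAF group at an unadjusted p under 0.05, against 4.54% of all genes tested in that comparison, and the 9 had a median of −0.83. The smallest adjusted p of the 9 was then 0.439 by Benjamini-Hochberg in the quasi-likelihood test of edgeR. DSS-5 was singled out here as the lowest mouse in 7 of these 9 genes, so leaving it out was bound to widen the difference in them. Without DSS-1 and DSS-5 together, a choice made after seeing the data, the median was −0.81 and 7 of the 9 had an unadjusted p under 0.05, against 2.51% of all genes tested in that comparison that were lower at this p.

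**Figure D1:**
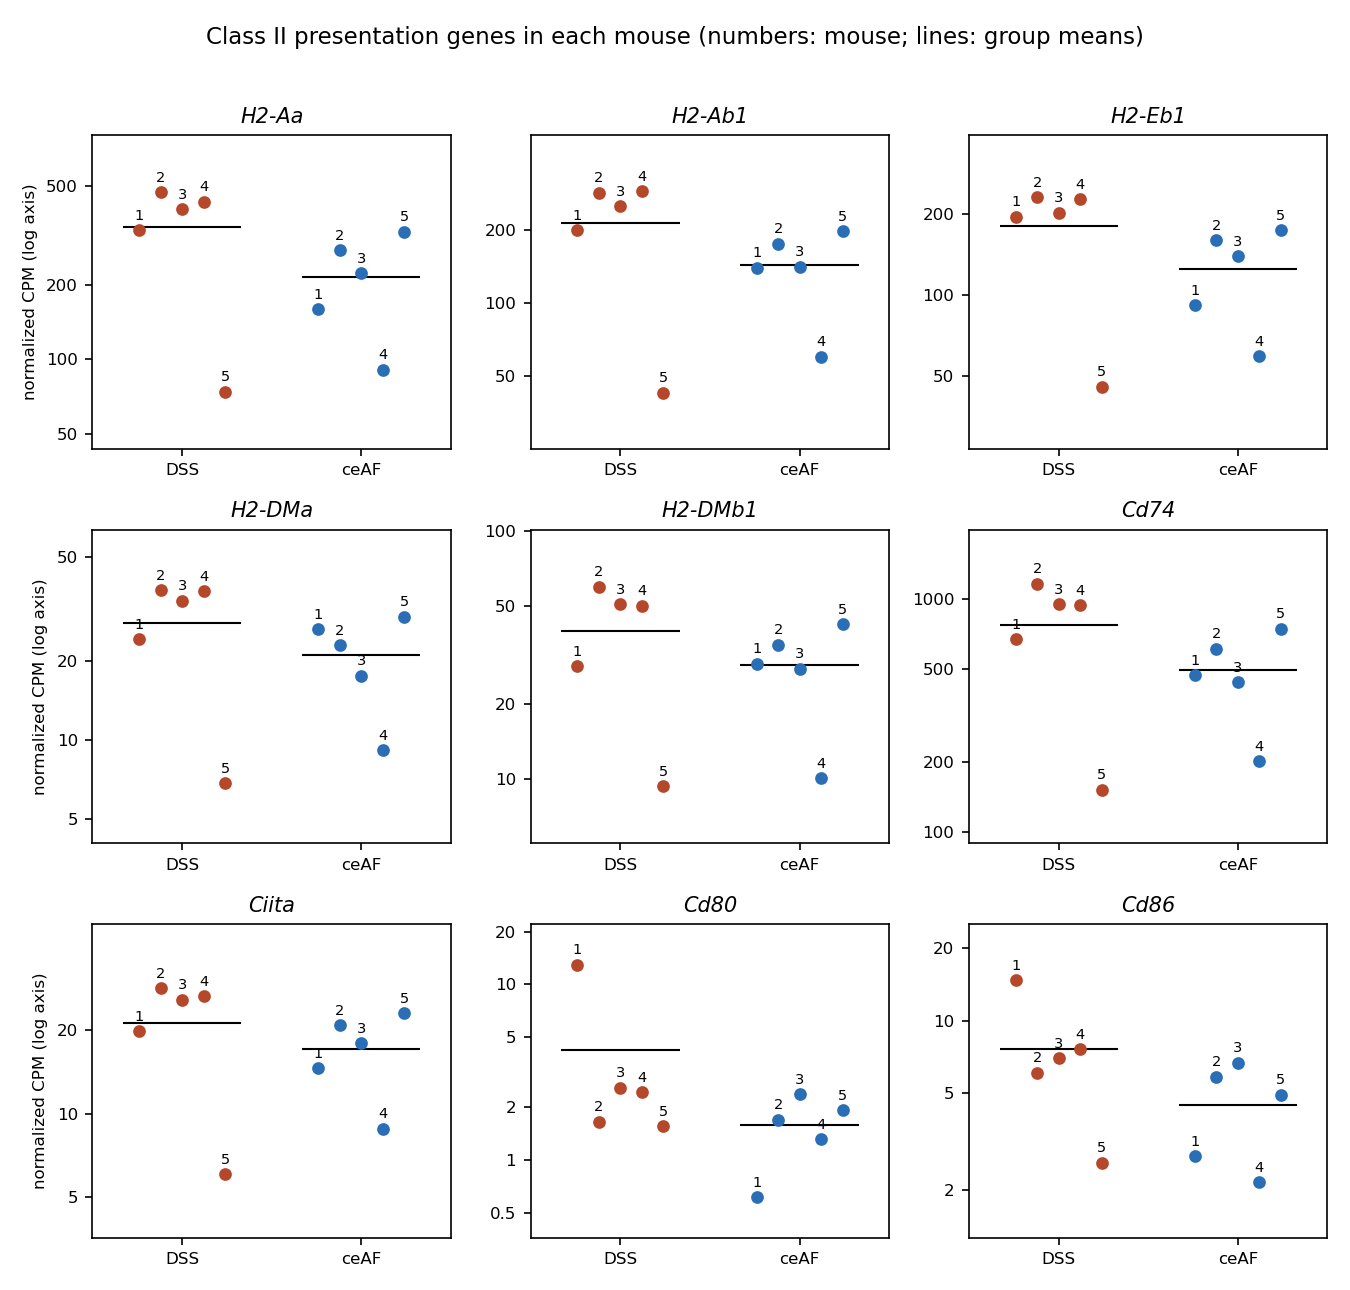
Each panel plots the level of 1 gene in each mouse, in CPM on a log axis, for the DSS group (red) and the ceAF group (blue), with the mouse number above each point and a line at the mean of the 5 mice. DSS-5 and ceAF-4 are the lowest mice of their groups in the first 7 panels (74.1 and 90.7 CPM for *H2-Aa*), and DSS-1 is the highest in *Cd80* (12.9 CPM) and *Cd86* (14.7 CPM).

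The classical class II chains were abundant and moved together from mouse to mouse. *H2-Aa* (ENSMUSG00000036594) encodes the alpha chain of the I-A molecule, and its level was 331, 471, 403, 432 and 74.1 CPM in DSS-1 to DSS-5 and 159, 275, 223, 90.7 and 327 CPM in ceAF-1 to ceAF-5. All 5 ceAF mice lay below DSS-1 to DSS-4 and above DSS-5, so the groups overlapped through that mouse. The mean was 342 ± 158 CPM in the DSS group and 215 ± 93.4 CPM in the ceAF group (± SD, n = 5 per group). Its log2 fold change was −0.67 (standard error 0.452, 95% confidence interval −1.67 to 0.33), and the adjusted p was 0.803 by Benjamini-Hochberg in the quasi-likelihood test of edgeR. An exact two-sided permutation test over all 252 ways to divide the mice gave p = 0.365, where 0.00794 is the smallest p possible. Without DSS-5, the lowest mouse, the log2 fold change of *H2-Aa* was −0.91, with an unadjusted p of 0.0151 and an adjusted p of 0.439 in the quasi-likelihood test of edgeR. Without ceAF-4 it was −0.46.

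*H2-Ab1* (ENSMUSG00000073421) encodes the beta chain that pairs with that of *H2-Aa*. Its level was 201, 286, 252, 290.5 and 42.7 CPM in DSS-1 to DSS-5 and 140.4, 176, 142, 60.2 and 198 CPM in ceAF-1 to ceAF-5. The highest ceAF mouse, ceAF-5, lay just below DSS-1, and DSS-5 again lay below all others. The mean was 214 ± 103 CPM in the DSS group and 143 ± 52.4 CPM in the ceAF group (± SD, n = 5 per group), a log2 fold change of −0.58 (standard error 0.449). *H2-Eb1* (ENSMUSG00000060586) encodes the beta chain of the I-E molecule, and its level was 195, 231, 202, 227 and 45.7 CPM in DSS-1 to DSS-5 and 91.7, 160.0, 139, 59.2 and 174 CPM in ceAF-1 to ceAF-5. Here too DSS-1 to DSS-4 lay above every ceAF mouse and DSS-5 below every one. The log2 fold change of *H2-Eb1* was −0.53 (standard error 0.407). Without ceAF-4 the log2 fold changes were −0.37 for *H2-Ab1* and −0.34 for *H2-Eb1*. Without DSS-5 they were −0.83 and −0.76, with unadjusted p-values of 0.0154 and 0.019 and adjusted p-values of 0.44 and 0.455 in the quasi-likelihood test of edgeR. With all 10 mice the adjusted p was 0.837 for both *H2-Ab1* and *H2-Eb1* by Benjamini-Hochberg in the quasi-likelihood test of edgeR. The exact permutation p-values were 0.460 and 0.421. *H2-Ea*, the alpha chain gene that would pair with *H2-Eb1*, is known to be silent in the C57BL/6 strain, and 1 read was counted on it in the 10 mice together, in ceAF-1.

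*Cd74* (ENSMUSG00000024610) encodes the invariant chain, which blocks the groove of new class II molecules and guides them to the endosome. It was the most abundant of the 9 genes, at 672, 1164, 949, 943 and 153 CPM in DSS-1 to DSS-5 and 470.4, 611, 439, 202 and 746 CPM in ceAF-1 to ceAF-5. In 4 of the 5 ceAF mice *Cd74* lay below DSS-1 to DSS-4, and ceAF-5 lay above DSS-1. The mean was 776 ± 389.7 CPM in the DSS group and 494 ± 204 CPM in the ceAF group (± SD, n = 5 per group), a log2 fold change of −0.65 (standard error 0.470). The adjusted p of *Cd74* was 0.823 by Benjamini-Hochberg in the quasi-likelihood test of edgeR, and the exact permutation p-value was 0.437.

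*H2-DMa* (ENSMUSG00000037649) and *H2-DMb1* (ENSMUSG00000079547) encode the chains of H2-DM, the molecule that removes the last fragment of the invariant chain from the groove. *H2-DMa* was at 24.3, 37.4, 34.1, 37.0 and 6.84 CPM in DSS-1 to DSS-5 and at 26.6, 23.0, 17.6, 9.13 and 29.6 CPM in ceAF-1 to ceAF-5. *H2-DMb1* was at 28.5, 59.7, 50.7, 50.0 and 9.30 CPM in DSS-1 to DSS-5 and at 29.1, 34.8, 27.9, 10.02 and 42.1 CPM in ceAF-1 to ceAF-5. In these genes DSS-1 lay among the ceAF mice, so that DSS-2, DSS-3 and DSS-4 alone lay above all of them. *H2-DMa* had a log2 fold change of −0.40 (standard error 0.422) and *H2-DMb1* of −0.46 (standard error 0.463). With single mice left out *H2-DMa* ran from −0.64 (without DSS-5) to −0.20 (without ceAF-4), and was −0.26 without DSS-2. *H2-DMb1* ran likewise from −0.70 (without DSS-5) to −0.23 (without ceAF-4), and was −0.25 without DSS-2. With all 10 mice their adjusted p values were 0.897 and 0.886 by Benjamini-Hochberg in the quasi-likelihood test of edgeR. On the opposite strand *H2-DMa* overlaps *Brd2*, which had 26296 counts over the 10 mice against 4143 on *H2-DMa*, and whether the counting used strand is not given in the sources used here. *Brd2* was at 132 to 184 CPM in every mouse and at 165 CPM in DSS-5, where *H2-DMa* was lowest. *H2-DMb1* has a near copy, *H2-DMb2*, and reads shared between them may have been assigned to either.

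*Ciita* (ENSMUSG00000022504) encodes the coactivator of these genes. Its level was 19.9, 28.4, 25.8, 26.5 and 6.06 CPM in DSS-1 to DSS-5 and 14.6, 20.9, 18.0, 8.83 and 23.1 CPM in ceAF-1 to ceAF-5. DSS-5 and ceAF-4 were again the lowest mice, and ceAF-2 and ceAF-5 lay above DSS-1. The mean was 21.3 ± 9.11 CPM in the DSS group and 17.1 ± 5.61 CPM in the ceAF group (± SD, n = 5 per group). For *Ciita* the log2 fold change was −0.32 (standard error 0.375), the smallest of the 9 in size, with an adjusted p of 0.913 by Benjamini-Hochberg in the quasi-likelihood test of edgeR. With single mice left out the log2 fold change of *Ciita* ran from −0.54 (without DSS-5) to −0.14 (without ceAF-4), and was −0.18 without DSS-2. *Dexi* overlaps *Ciita* on the opposite strand and was at 8.94 to 14.2 CPM in the 10 mice, lowest in DSS-5 as *Ciita* was, with 1853 counts over all mice, or 56.8% of those on *Ciita*. Without knowledge of strand, reads of this pair cannot be told apart.

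The costimulatory ligands followed another order. *Cd80* (ENSMUSG00000075122) was at 12.9, 1.65, 2.57, 2.43 and 1.56 CPM in DSS-1 to DSS-5 and at 0.610, 1.69, 2.36, 1.31 and 1.92 CPM in ceAF-1 to ceAF-5. DSS-1 stood far above all other mice, which overlapped, and ceAF-1 was lowest. These values rest on 223 counts in DSS-1 and 8 in ceAF-1. *Cd80* had a log2 fold change of −1.41 (standard error 0.625), with an unadjusted p of 0.046 and an adjusted p of 0.717 by Benjamini-Hochberg in the quasi-likelihood test of edgeR. The exact permutation p-value was 0.143. Without DSS-1 the log2 fold change was −0.36, with an unadjusted p of 0.342.

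*Cd86* (ENSMUSG00000022901) was at 14.7, 6.10, 7.004, 7.62 and 2.58 CPM in DSS-1 to DSS-5 and at 2.75, 5.86, 6.69, 2.15 and 4.95 CPM in ceAF-1 to ceAF-5. It combined both patterns: DSS-1 was highest, as for *Cd80*, and DSS-5 and ceAF-4 were the lowest mice, as for the class II chains, together with ceAF-1. The mean was 7.60 ± 4.43 CPM in the DSS group and 4.48 ± 1.97 CPM in the ceAF group (± SD, n = 5 per group). The log2 fold change of *Cd86* was −0.76 (standard error 0.439) with an exact permutation p-value of 0.175, and it was −0.37 without DSS-1. Its adjusted p was 0.758 by Benjamini-Hochberg in the quasi-likelihood test of edgeR.

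Levels of different genes were compared per length, in the deposited FPKM (counts scaled by exonic length and library total). Averaged over the 10 mice, *Cd74* was at 378 FPKM, *H2-Eb1* at 78.5, *H2-Aa* at 73.4 and *H2-Ab1* at 69.5. *H2-DMb1* followed at 20.3 FPKM, *H2-DMa* at 7.09, *Ciita* at 2.01, *Cd86* at 1.66 and *Cd80* at 0.799. The I-A and I-E chains were close to each other compared with the spread between mice (SD of 39.1 to 41.3 FPKM in the DSS group). The ratios among the classical chains, *Cd74*, *Ciita* and the pair of H2-DM chains varied less than the levels of these genes. While *H2-Aa* differed 6.35-fold between the highest and the lowest mouse in CPM, the ratio of *H2-Aa* to *H2-Ab1* in FPKM lay between 1.00 and 1.17 in 9 mice and was 0.764 in ceAF-1. *Cd74* stood at 4.75 to 6.21 times the FPKM of *H2-Ab1* in the 10 mice, with 5.46 in DSS-5 and 5.13 in ceAF-4. The ratio of *H2-DMb1* to *H2-DMa* was 2.25 to 3.27. *Ciita* varied less than its targets, and its ratio to *H2-Ab1* was highest in the mice with the least class II, at 0.0379 in DSS-5 and 0.0396 in ceAF-4 against 0.0246 to 0.0342 in the others.

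Across the 10 mice the level of *H2-Aa* was set against that of each other gene of the 9, on log2 CPM, in 8 relations with permutation tests of 100000 draws. Pearson's r with *H2-Aa* was 0.995 for *H2-Eb1*, 0.985 for *Cd74*, 0.983 for *H2-Ab1* and 0.983 for *Ciita*, and Spearman's rho was 1.0, 0.964, 0.988 and 0.964. Permutation p-values for these 4 genes were 1e-05 to 2e-05 for r and 1e-05 to 5e-05 for rho, and at most 4e-05 and 0.0001 after adjustment over the 8 relations. The smallest p these draws can give is 1e-05. For *H2-DMb1* r was 0.959 (permutation p = 9e-05, adjusted 0.000144) and rho 0.891 (permutation p = 0.00127, adjusted 0.00169). For *H2-DMa* r was 0.935 (permutation p = 0.00048, adjusted 0.00064) and rho 0.903 (permutation p = 0.00086, adjusted 0.00138). These 6 genes thus ordered the mice nearly as *H2-Aa* did.

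Without DSS-5 and ceAF-4, the mice farthest from the median of *H2-Aa*, r was 0.982 for *H2-Eb1*, 0.973 for *Ciita*, 0.952 for *H2-Ab1*, 0.937 for *Cd74*, 0.828 for *H2-DMb1* and 0.704 for *H2-DMa*. Within the groups, after taking off each group's mean, r was 0.941 to 0.997 for the same 6 genes. *Cd86* followed *H2-Aa* less closely, with r = 0.80 (permutation p = 0.00482, adjusted 0.00551) and rho = 0.758 (permutation p = 0.0151, adjusted 0.0173). Its r was 0.776 within the groups and 0.555 without the same pair of mice, so the relation rests partly on them. For *Cd80* r was 0.412 (permutation p = 0.253) and rho 0.612 (permutation p = 0.0659), the largest p-values of the 8, which adjustment left as they were.

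**Figure D2:**
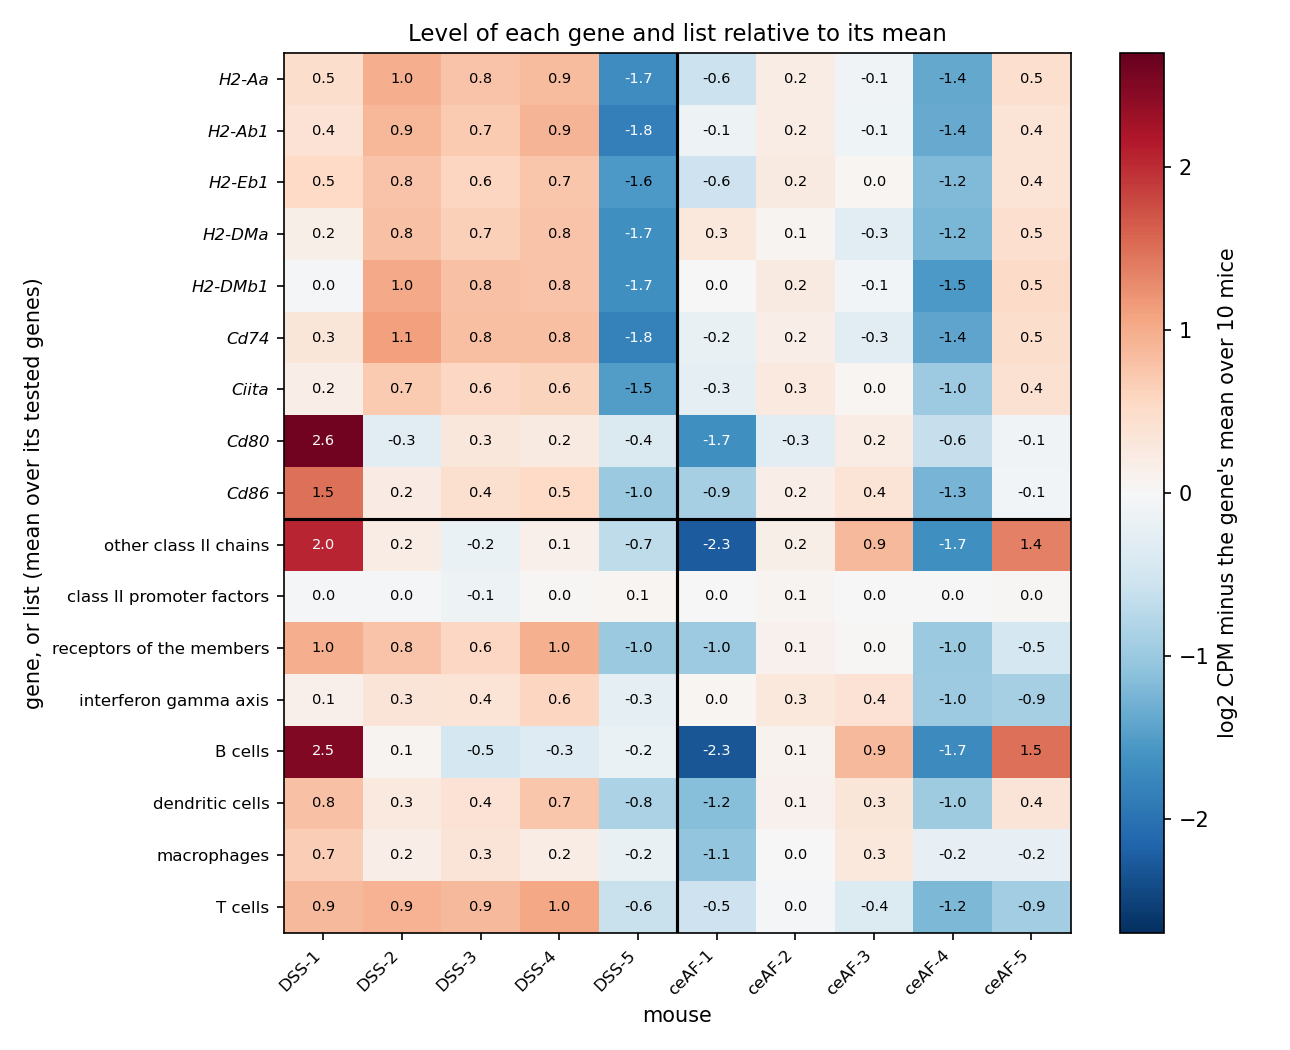
The rows are the 9 genes (above the line) and lists of related genes (below it), the columns are the mice, and the colour and the number give the log2 CPM minus the mean of the gene over the 10 mice, averaged over the tested genes of a list. The class II chains, *Cd74*, H2-DM and *Ciita* are low in DSS-5 and ceAF-4, while the B cell list and the other class II chains are high in DSS-1 (2.50 and 2.05 on average) and low in ceAF-1 (−2.31 for the B cell list).

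The other class II chains did not share the order of mice of the classical chains, and like *Cd80* were highest in DSS-1 and lowest in ceAF-1. Of 5 genes, 4 were tested, all 4 had a lower fitted level in the ceAF group and 0 had an unadjusted p under 0.05 in the quasi-likelihood test of edgeR. *H2-Oa* and *H2-Ob* encode H2-O, which restrains H2-DM mostly in B cells. *H2-Ob* was at 42.8, 9.49, 5.99, 8.84 and 5.22 CPM in DSS-1 to DSS-5 and at 1.22, 10.7, 18.2, 3.10 and 26.9 CPM in ceAF-1 to ceAF-5. *H2-Ob* was thus highest in DSS-1 and lowest in ceAF-1, with ceAF-5 and ceAF-3 next to DSS-1. *H2-Oa*, *H2-Eb2* and *H2-DMb2* were also highest in DSS-1, at 8.46, 8.29 and 22.0 CPM, and lowest in ceAF-1, at 0.458, 0.534 and 1.07 CPM. The log2 fold changes were −0.26 for *H2-Ob* (standard error 0.792), −0.44 for *H2-Oa* (standard error 0.713), −0.22 for *H2-Eb2* (standard error 0.693) and −0.57 for *H2-DMb2* (standard error 0.660). Their median of −0.35 turned to 0.40 when DSS-1 was left out and was −0.56 without DSS-5. In FPKM the ratio of *H2-Ob* to *H2-DMb1* ran from 0.0129 in ceAF-1 to 0.469 in DSS-1.

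Markers of the cells that carry class II were measured beside these genes. The 10 B cell markers summed to 282, 49.4, 36.7, 41.8 and 45.6 CPM in DSS-1 to DSS-5 and to 10.6, 51.9, 95.8, 15.3 and 139 CPM in ceAF-1 to ceAF-5. DSS-5 thus did not stand apart in B cell markers, although it had the lowest level of *H2-Aa*, and ceAF-1 was lowest. All 10 markers had a lower fitted level in the ceAF group and 0 had an unadjusted p under 0.05, with a median log2 change of −0.60 that turned to 0.57 without DSS-1. The most abundant was *Cd79a*, part of the B cell receptor, at 16.6 ± 17.2 CPM in the DSS group and 9.93 ± 8.41 CPM in the ceAF group (± SD, n = 5 per group). The log2 fold changes ran from −1.02 for *Fcer2a* to −0.14 for *Ms4a1*.

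The 10 dendritic cell markers summed to 41.3, 37.1, 35.7, 44.1 and 15.1 CPM in DSS-1 to DSS-5 and to 13.2, 31.2, 33.5, 17.5 and 36.6 CPM in ceAF-1 to ceAF-5. DSS-5, ceAF-1 and ceAF-4 were the low mice, as in *Cd86*, and DSS-5 and ceAF-4 are also the low mice of the class II chains. Of the 9 markers tested, 9 had a lower fitted level in the ceAF group and 0 had an unadjusted p under 0.05, with a median log2 change of −0.37. Without DSS-5 the median was −0.58 and 2 of the 9 markers had an unadjusted p under 0.05, and without DSS-1 the median was −0.19. *Itgax*, the integrin CD11c and the most abundant of them, was at 15.8, 24.0, 22.2, 25.2 and 8.52 CPM in DSS-1 to DSS-5 and at 7.33, 19.7, 20.5, 11.1 and 21.3 CPM in ceAF-1 to ceAF-5. *Ccr7*, the homing receptor of mature dendritic cells and of lymphocytes, was at 10.6 CPM in DSS-1, where *Cd80* and *Cd86* were highest, and at 0.229 to 2.74 CPM in the other 9 mice. Its log2 fold change of −1.43 was the lowest of the list and that of *Batf3*, at −0.08, the highest.

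The 10 macrophage markers summed to 259.5, 220.4, 235, 225 and 155 CPM in DSS-1 to DSS-5 and to 193, 178, 237, 187 and 178 CPM in ceAF-1 to ceAF-5. In ceAF-1 most of the sum was *Mertk*, which was highest there at 145 CPM, while ceAF-1 was the lowest mouse in 8 of the 10 markers. In the mean log2 level of the list, relative to each gene's mean, ceAF-1 was lowest at −1.06. DSS-5 was at −0.19, and ceAF-4 and ceAF-5 were both at −0.22. *Adgre1* (F4/80; log2 fold change −0.58, unadjusted p = 0.0337 in the quasi-likelihood test of edgeR) and *C1qa* (−0.62, unadjusted p = 0.0492) were lower in the ceAF group at an unadjusted p under 0.05, and 0 of the 10 were without DSS-1. Of the 10 markers 9 had a lower fitted level, with a median log2 change of −0.49. *Mertk*, the most abundant, was the 1 marker with a fold change above 0, at 0.44, and *Fcgr1* was lowest at −0.81. No marker of the 3 lists was at 0 counts in all mice. The part of these cells in the class II values was not tested.

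The receptors that bind class II molecules or CD80 and CD86 were low in DSS-5, ceAF-4 and ceAF-1. The 4 receptor genes summed to 10.9 CPM in DSS-5, 10.8 in ceAF-4 and 10.6 in ceAF-1, against 15.9 to 44.6 CPM in the other mice, and 4 of 4 had a lower fitted level in ceAF mice, with a median log2 change of −0.95. CD4 and LAG-3 bind class II molecules, and CD28 and CTLA-4 bind CD80 and CD86. *Cd4* was at 15.5, 11.4, 10.2, 14.4 and 2.94 CPM in DSS-1 to DSS-5 and at 2.67, 6.70, 6.14, 3.22 and 5.94 CPM in ceAF-1 to ceAF-5. *Lag3* was at 6.61, 7.995, 6.71, 10.5 and 2.10 CPM in DSS-1 to DSS-5 and at 3.05, 2.47, 3.29, 2.15 and 2.58 CPM in ceAF-1 to ceAF-5. In both genes all 5 ceAF mice were under DSS-1 to DSS-4, and DSS-5 lay among or below the ceAF mice. *Lag3* had a log2 fold change of −1.32 (standard error 0.351, unadjusted p = 0.00309) and *Cd4* of −1.14 (standard error 0.411, unadjusted p = 0.0181), each with an adjusted p of 0.656 by Benjamini-Hochberg in the quasi-likelihood test of edgeR. It was −0.76 for *Ctla4* (standard error 0.489) and −0.72 for *Cd28* (standard error 0.368). *Ctla4* was at 14.3, 10.8, 8.92, 12.2 and 1.86 CPM in DSS-1 to DSS-5 and at 2.75, 9.96, 7.57, 3.70 and 4.45 CPM in ceAF-1 to ceAF-5. *Cd28* was at 4.02 CPM in DSS-5 against 6.11 to 8.23 CPM in the other DSS mice, and at 1.73 to 6.51 CPM in the ceAF mice.

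T cell markers, 9 genes for the antigen receptor and its partners, summed to 127, 146, 139, 151 and 54.5 CPM in DSS-1 to DSS-5 and to 55.8, 68.6, 55.6, 30.9 and 36.6 CPM in ceAF-1 to ceAF-5. DSS-1 to DSS-4 were the high mice, as for *H2-Aa*, but DSS-5 lay among the ceAF mice, and ceAF-5, high in class II, was among the lowest in T cell markers. All 9 had a lower fitted level in the ceAF group with an unadjusted p under 0.05 in the quasi-likelihood test of edgeR, and 0 were called after adjustment in edgeR with all 10 mice. DESeq2's Wald test called 3 of the 9, *Cd3g*, *Cd3d* and *Cd8a*, and edgeR without DSS-5 called *Cd3g*. The log2 fold changes of the 9 were −1.52 for *Cd3d*, −1.47 for *Cd3g*, −1.42 for *Cd8a*, the most abundant, −1.30 for *Trbc1*, −1.25 for *Trbc2*, −1.23 for *Trac*, −1.22 for *Cd2*, −1.19 for *Cd3e* and −0.98 for *Cd5*.

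Other costimulatory ligands were mostly scarce. Of 8 genes, 5 were tested, all 5 had a lower fitted level in the ceAF group, and the median log2 fold change was −0.76. *Tnfsf9* (4-1BB ligand) was at 3.999, 0.4997, 1.56, 1.28 and 2.16 CPM in DSS-1 to DSS-5 and at 0.839, 0.651, 0.603, 0.955 and 0.495 CPM in ceAF-1 to ceAF-5. It was highest in DSS-1, as *Cd80* was, and only DSS-2 lay among the ceAF mice. Its log2 fold change was −1.42 (standard error 0.476) with an unadjusted p of 0.0126 and an adjusted p of 0.656 by Benjamini-Hochberg in the quasi-likelihood test of edgeR. *Cd274*, the gene of PD-L1 and the most abundant of the list, was at 62.0, 50.1, 49.3, 54.9 and 16.4 CPM in DSS-1 to DSS-5 and at 53.0, 72.1, 71.2, 12.3 and 14.5 CPM in ceAF-1 to ceAF-5. DSS-5 and ceAF-4 were low in *Cd274* as in class II, but so was ceAF-5, and the log2 fold change was −0.06 (standard error 0.517).

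The factors that bind class II promoters together with CIITA varied little in sum, while single genes of them differed between mice. RFX5, RFXAP and RFXANK form the complex on the X box, NF-Y binds the Y box and CREB1 the neighbouring X2 box. Their 7 genes summed to 209 to 269 CPM in the 10 mice, with 2 of 7 at a lower and 5 at a higher fitted level in the ceAF group, a median log2 change of 0.03 and 0 with an unadjusted p under 0.05 in the quasi-likelihood test of edgeR. *Rfx5* was at 19.7, 23.0, 22.1, 24.1 and 10.1 CPM in DSS-1 to DSS-5 and at 22.0, 21.5, 23.4, 19.2 and 26.6 CPM in ceAF-1 to ceAF-5. It was lowest in DSS-5, the mouse with the least class II, and close to the other mice in ceAF-4. The log2 fold change of *Rfx5*, at 0.18, was the highest of the list and that of *Rfxap*, at −0.17, the lowest. *Nfya* was highest in DSS-5, at 60.1 CPM against 24.7 to 54.9 in the other mice, and had a log2 fold change of 0.16 (standard error 0.2399). *Rfxank* (0.08), *Nfyb* (−0.05), *Nfyc* (0.03) and *Creb1* (0.01, the most abundant) had log2 fold changes within 1 standard error of 0.

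Interferon gamma is the best known inducer of *Ciita*. *Ifng* was at 2.26, 3.50, 3.17, 4.74 and 1.08 CPM in DSS-1 to DSS-5 and at 0.839, 1.69, 0.823, 0.119 and 0.440 CPM in ceAF-1 to ceAF-5. All 5 ceAF mice were under DSS-1 to DSS-4, and DSS-5 lay below ceAF-2. For *Ifng* the log2 fold change was −1.92 (standard error 0.555), with an unadjusted p of 0.00538 and an adjusted p of 0.656 by Benjamini-Hochberg in the quasi-likelihood test of edgeR, and *Ifng* was the 1 gene of 10 in the interferon gamma list with an unadjusted p under 0.05. The list had a median log2 change of −0.11, with 6 of 10 genes at a lower fitted level. *Ifngr1*, a receptor chain for interferon gamma and the most abundant gene of the list, had a log2 fold change of 0.02. Class II and *Cxcl9* parted in ceAF-5: this gene of a chemokine induced by interferon gamma was at 13.1 CPM there and in ceAF-4, but *H2-Aa* was at 327 CPM in ceAF-5 and 90.7 CPM in ceAF-4. In DSS-5 *Cxcl9* was at 17.5 CPM, and in the other 7 mice it was at 29.2 to 69.9 CPM.

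The genes that prepare peptides for class II were not low in DSS-5 or ceAF-4 to the same degree. Of 11 genes for lysosomal proteases, their helpers and class II turnover, 10 had a lower fitted level in ceAF mice, with a median log2 change of −0.14. In ceAF-5, a mouse high in class II, 6 of the 11 were at their lowest level. The sum of the 11 was also lowest in ceAF-5, at 1721 CPM, against 2469 CPM in DSS-5 and 2355 CPM in ceAF-4. *Lgmn*, an asparagine-specific protease, was the 1 gene with an unadjusted p under 0.05, at 128, 90.6, 92.6, 110.3 and 148 CPM in DSS-1 to DSS-5 and 94.9, 63.1, 72.6, 88.3 and 48.9 CPM in ceAF-1 to ceAF-5. *Lgmn* was highest in DSS-5, and ceAF-1 was the only ceAF mouse above any DSS mouse. Its log2 fold change was −0.63 (standard error 0.197), the lowest of the list, with an unadjusted p of 0.00852 and an adjusted p of 0.656 by Benjamini-Hochberg in the quasi-likelihood test of edgeR. *Ctss*, the protease that trims the invariant chain, was at 487 ± 48.1 CPM in the DSS group and 442 ± 145 CPM in the ceAF group (± SD, n = 5 per group). *Ctsh* had the highest fold change, 0.02, and *Sppl2a*, which cleaves the last membrane stub of the invariant chain, was the most abundant, with a log2 fold change of −0.12.

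Of the 9 genes, 5 lie together on chromosome 17, with *H2-DMa* at 34338515 to 34358075, *H2-DMb1* at 34372046 to 34379204, *H2-Ab1* at 34476663 to 34488393, *H2-Aa* at 34501718 to 34506797 and *H2-Eb1* at 34524841 to 34535648, as deposited and without a named build. *H2-Aa* is on the reverse strand and the other 4 on the forward strand. *Ciita*, *Cd80* and *Cd86* lie on chromosome 16 (10297923 to 10346282, 38275923 to 38316697 and 36424231 to 36486443) and *Cd74* on chromosome 18 (60936920 to 60945724). The stretch from *H2-DMa* to *H2-Eb1* holds 13 further genes, 8 of them tested, 4 with a lower fitted level in the ceAF group and 0 with an unadjusted p under 0.05 in the quasi-likelihood test of edgeR. The class I genes *Psmb9*, *Tap1*, *Psmb8* and *Tap2*, which make and move peptides for the class I pathway, lie in the middle of it. Their log2 fold changes were 0.09 (standard error 0.461), 0.13 (standard error 0.530), −0.18 (standard error 0.395) and −0.09 (standard error 0.359), against −0.67 to −0.40 for the 5 class II genes, whose standard errors were 0.407 to 0.463. These 4 genes were low in DSS-5 too, with *Psmb9* at 23.4 CPM against a mean of 64.0 over the 10 mice, *Tap1* at 55.3 against 189, *Psmb8* at 63.1 against 134 and *Tap2* at 36.6 against 77.1. Whether the class I and class II genes differed in fold change was not tested.

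**Figure D3:**
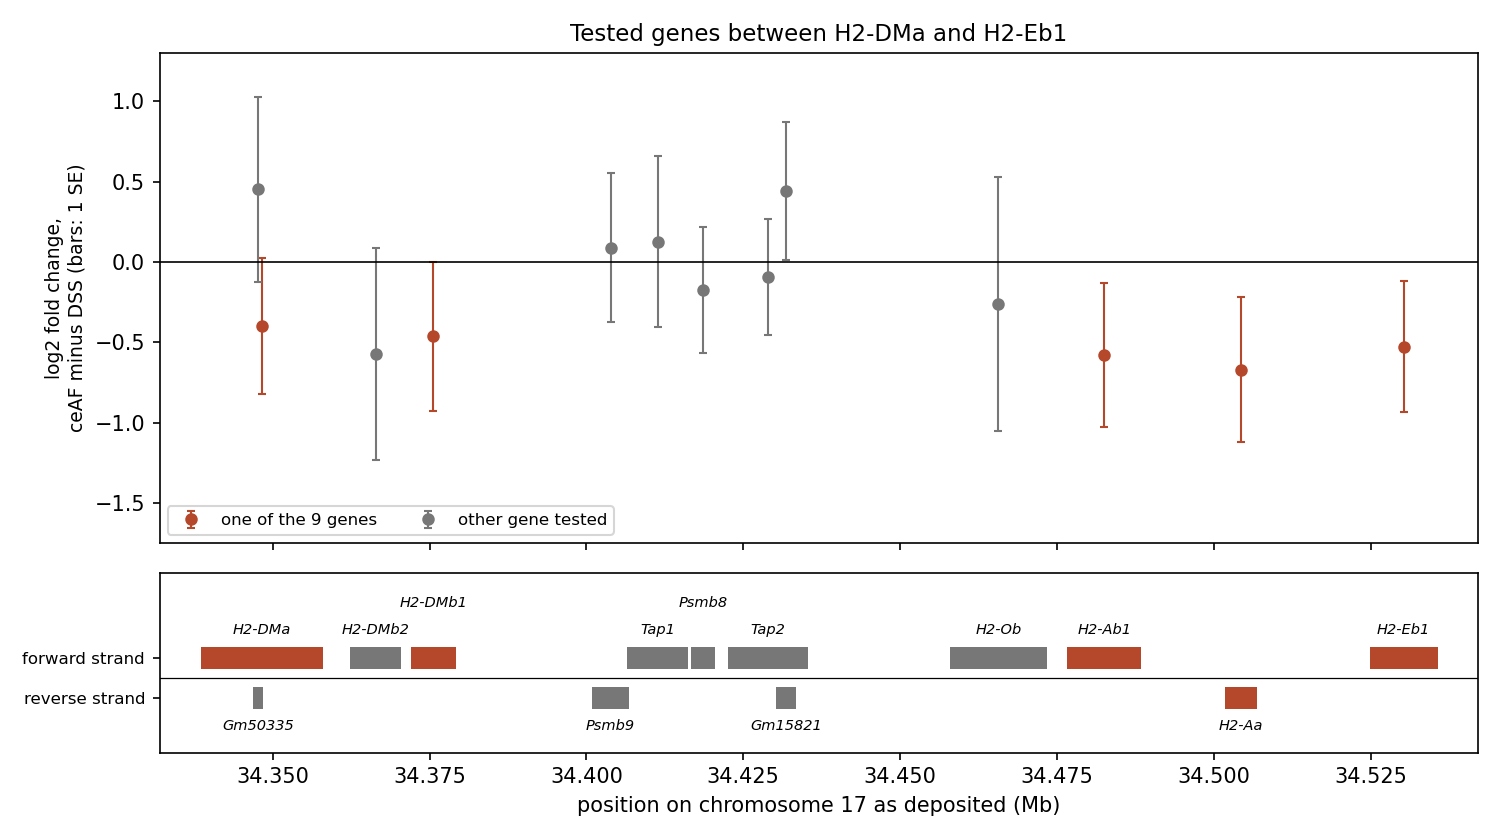
The upper panel plots the log2 fold change, ceAF minus DSS, of each tested gene at its deposited position on chromosome 17, with bars of 1 standard error, and the lower panel draws the genes on their strands. The 5 class II genes of the 9 (red) lie between −0.67 and −0.40, and the 8 other genes (grey) between −0.57 and 0.45.

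Class II promoters are known for an X box and a Y box at a fixed distance, and because these genes moved together their promoters were read in the RefSeq table of 300 bases around each gene start (build GRCm38.p6). The letters searched were ATTGG for the Y box and AGNAAC for the core of the X box, on both strands, and a pair was an X core followed on the same strand by a Y box 10 to 40 bases later. Of 32851 promoters, 37.4% held the Y box letters, 48.1% the X core letters and 1.67% the pair. The table has promoters for *H2-Aa*, *H2-Eb1*, *H2-DMa*, *H2-DMb1* and *Cd80*, and none for *H2-Ab1*, *Cd74*, *Ciita* and *Cd86*. The pair was found in *H2-Eb1* and *H2-DMb1* and, among the other class II chains, in *H2-Eb2*, *H2-Oa* and *H2-Ob*. The stretches are shown so that the shared letters and spacing can be read, with the X core and the Y box in capitals, all on the forward strand:
*H2-Eb1*, chr17:34305765-34305822: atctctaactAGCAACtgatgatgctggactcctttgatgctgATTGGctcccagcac
*H2-Eb2*, chr17:34325532-34325589: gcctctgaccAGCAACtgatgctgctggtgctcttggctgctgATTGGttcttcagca
*H2-DMb1*, chr17:34153086-34153144: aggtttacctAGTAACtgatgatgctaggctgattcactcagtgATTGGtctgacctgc
*H2-Oa*, chr17:34092292-34092350: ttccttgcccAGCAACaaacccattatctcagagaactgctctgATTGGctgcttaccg
*H2-Ob*, chr17:34238807-34238862: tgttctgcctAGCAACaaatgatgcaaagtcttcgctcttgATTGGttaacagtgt

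The X core and the Y box were 27 bases apart in *H2-Eb1* and *H2-Eb2*, 28 in *H2-DMb1* and *H2-Oa* and 25 in *H2-Ob*, and the Y box ended 38 to 95 bases before the gene start. The promoters of *H2-Aa* and *H2-DMb2* held the Y box letters without the X core letters as searched, and their stretches, with the Y box in capitals and on the strand of the gene, show which letters precede it:
*H2-Aa*, chr17:34287857-34287914, reverse strand: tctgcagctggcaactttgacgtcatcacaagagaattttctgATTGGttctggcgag
*H2-DMb2*, chr17:34145116-34145173, forward strand: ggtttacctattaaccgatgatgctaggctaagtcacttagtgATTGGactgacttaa
The Y box of *H2-Aa* ended 43 bases before the gene start. The pair was thus found both in genes that followed *H2-Aa* over the mice (*H2-Eb1*, *H2-DMb1*) and in genes that had another order (*H2-Ob*, *H2-Oa*, *H2-Eb2*). The promoter of *Cd80* held the X core letters without the Y box, and neither of the 2 promoters listed for *H2-DMa* held the pair.

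Outside the 9, the 10 genes whose log2 CPM followed the mean of *H2-Aa*, *H2-Ab1*, *H2-Eb1* and *Cd74* most closely over the 10 mice were *Sla2* and *Jaml* (Pearson's r of 0.963 each), *Gm26813* (0.959), *Scd4* (0.953), *Naaa* (0.944), *Rgs10* (0.940), *Klrd1* (0.939), *Brdt* (0.938), *Lsm4* (0.933) and *Amz1* (0.926). *Jaml*, an adhesion molecule of leukocytes, was at 12.1 CPM in DSS-2, 4.08 in DSS-5 and 4.30 in ceAF-4, and its r was 0.962 without DSS-5. *Naaa*, a lysosomal amidase, was at 30.5 CPM in DSS-2, 10.5 in DSS-5 and 14.9 in ceAF-4. *Gm26813* and *Scd4* averaged 1.103 and 0.821 CPM, so their values rest on few counts. The log2 fold changes of the 10 genes ran from −0.56 (*Jaml*) to −0.14 (*Lsm4*), and choosing genes for likeness to a mean that was lower in the ceAF group nearly fixed this sign.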

How the data were processed

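RNA of colon was sequenced from 5 DSS and 5 ceAF mice, grouped by the sample labels, with doses from the study's methods. The authors deposited raw read counts per gene and the FPKM of each mouse, and each deposited FPKM equals the count scaled by exonic length and library total, within 0.0051 plus 0.001 of the value. The submitters' processing notes name cutadapt 1.9.1 and HISAT2 2.2.1, and the counting program and genome build are not given in the sources used here. From the counts, genes were kept by filterByExpr (minimum count 10), scaled by TMM and compared by the two-sided quasi-likelihood test of edgeR 4.0.16 (R 4.3.3), adjusted by Benjamini-Hochberg over the 16545 genes. Levels are CPM after TMM, and log2 CPM was taken with prior count 1. Every pair of libraries of a group differed beyond counting noise (chi-square per gene 14.7 to 149, 20 pairs). Alternatives were other normalizations and filters, DESeq2 1.42.0, limma-trend (limma 3.58.1) on the deposited FPKM, a replicate block and leaving out mice. The steps were tested on simulated data. Permutation tests, exact over 252 assignments of mice or with 100000 draws, used Python 3.11.15 and SciPy 1.17.1, and figures matplotlib 3.10.9. Named were all 9 genes, all class II chains, promoter factors and receptors, of each other list the most abundant gene, those with an unadjusted p-value under 0.05 and those with the lowest and highest fold change (1 gene is not named), and the 10 most similar genes. *Ctss*, *Cxcl9*, *Brd2*, *Dexi* and the genes between *H2-DMa* and *H2-Eb1* were named after their values were seen. The 9 genes and the lists were chosen with earlier results of these data known.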

Additional observations from a re-analysis of the deposited data

Results flagged for a closer look

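How far a mouse stood from its group was measured as its distance to the next mouse over the whole spread of the 5, with 0.71 as the limit. Of 50 such comparisons 14 passed, where chance gives about 1 in 20, or 2.5. They are not independent, since most concern genes that vary together. DSS-5 accounts for 8 of them and DSS-1 for 3.

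DSS-5 was far below the other DSS mice in *H2-Eb1* (0.898), *H2-Aa* (0.809), *H2-Ab1* (0.807), *Ciita* (0.769), *H2-DMa* (0.745) and *Cd74* (0.73). It was also far below them in the mean log2 level of the receptors of class II molecules, CD80 and CD86 (0.789) and of the T cell markers (0.895). In the ceAF group, ceAF-4 was far below the others in *H2-DMb1* (0.712) and *H2-Ab1* (0.711). DSS-1 was far above the other DSS mice in *Cd80* (0.767), in the B cell markers (0.817) and in the fibroblast markers (0.78). In the plasma cell markers ceAF-1 was far below the other ceAF mice (0.743).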

How the results depend on the processing

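All 9 genes had a log2 fold change below 0 in every alternative run, and 0 of the 9 passed an adjusted p-value under 0.05 in any of them, whichever tool was used. The number of genes called over the whole table was 0 in edgeR and in limma-trend with all 10 mice and 31 in DESeq2. With each mouse left out in turn it ranged from 0 to 3, with 3 without DSS-5. Of the 9 genes, 1 had an unadjusted p-value under 0.05 in the main comparison, and 0 in DESeq2, which gave a p-value for 8 of them and none for *Cd80*, and 0 in limma-trend on FPKM with a pseudocount of 1 or 0.1. With each mouse left out this count ranged from 0 to 6. It was 6 without DSS-5, 0 without DSS-1, ceAF-1, ceAF-2, ceAF-4 or ceAF-5, and 7 without DSS-1 and DSS-5, which was chosen after seeing the data and where 2.51% of all genes tested were lower at this p. The median log2 fold change of the 9 genes lay between −0.83 and −0.37 with each mouse left out. The smallest adjusted p-value among the 9 genes (edgeR, DESeq2 or limma, Benjamini-Hochberg) was 0.717 in the main comparison and between 0.439 (without DSS-5) and 0.999911 (without DSS-1) in the alternatives. With the replicate number as a replicate block, 0 genes were called, 0 of the 9 genes had an unadjusted p-value under 0.05, and the median was −0.50. Same-numbered mice deviated from their group means with correlations of −0.249, −0.136, −0.00428, −0.159 and 0.286. The last is that of DSS-5 and ceAF-5, each the closest partner of the other. Whether the numbers pair the mice is not given, and these values cannot settle it. Except where mice were left out, the cause was not tested. *Cd80* had 8 to 223 counts per mouse, and its standard error was 0.625 with all mice and 0.359 without DSS-1.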

Other observations

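The other cell types of the colon wall were measured with lists of their markers. The 8 epithelial markers, led by *Krt8*, had a median log2 fold change of 0.05, with 3 at a lower and 5 at a higher fitted level in the ceAF group, from −0.29 for *Cdx2* to 0.20 for *Vil1*, and 0 with an unadjusted p under 0.05 in the quasi-likelihood test of edgeR. Their sum was 11552 CPM in DSS-5, the lowest of the 10 mice, and 13857 CPM in ceAF-4. The 5 smooth muscle markers, led by *Myh11*, had a median of −0.26 (from −0.32 for *Actg2* to −0.01 for *Myh11*) and the 5 fibroblast markers, led by *Col1a2*, a median of −0.37 (from −0.91 for *Lum* to −0.05 for *Col1a1*), with 0 markers of either list at an unadjusted p under 0.05. Without DSS-1 the fibroblast median turned to 0.01, and without DSS-5 the smooth muscle median was −0.04 and the epithelial median turned to −0.01.

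Plasma cells, which descend from B cells and lose class II, had a median of −0.41 over 5 markers, or −0.12 without DSS-1. Their sum was lowest in DSS-5, at 344 CPM, followed by ceAF-1 at 369 CPM and ceAF-4 at 533 CPM, against 707 to 1084 CPM in the other mice. In ceAF-1 most of the sum was *Sdc1*, at 289 CPM, while ceAF-1 was the lowest mouse in 4 of the 5 markers. In the mean log2 level of the list, ceAF-1 was lowest at −2.11, and DSS-5 was at −0.41. *Derl3* had the lowest log2 fold change, at −0.96 with an unadjusted p of 0.0193 in the quasi-likelihood test of edgeR. *Sdc1* had the highest, at −0.16, and *Jchain* was the most abundant. Neutrophil markers, 6 genes with a median of −3.96, were dominated by DSS-1, where they summed to 1748 CPM against 21.1 to 549 CPM in the other 9 mice. Of them *Retnlg* (−5.72), *S100a9* (−5.15), *S100a8* (−3.98), *Cxcr2* (−3.94) and *Csf3r* (−2.80) had an unadjusted p under 0.05 in the quasi-likelihood test of edgeR, and *Ly6g*, the most abundant, was at −0.67. Without DSS-1 the median was −1.52 and 1 of the 6 was lower at an unadjusted p under 0.05.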
